A study of Bos taurus with 60 samples.

Results

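LIF, STAT3 and CASP9 were described in bovine mammary tissue before and during the dry period, the weeks between 2 lactations in which a cow is not milked. The 3 genes were chosen by name, each was matched to a single locus that holds 1 ENSEMBL gene, and they are 3 of 25223 loci counted. The tissue came from 12 multiparous Holstein cows in late gestation, biopsied 3 days before dry-off (D-3) and on days 3, 7, 14 and 25 after it (D3 to D25), for 60 RNA-seq libraries in all. After dry-off, 6 cows (CL) had shade, fans and soakers and the other 6 cows (HT) had shade alone, so D-3 precedes the treatment. The D-3 samples of HT and CL come from different cows, set apart by later assignment and not yet by treatment. Each group of treatment and day holds 6 samples, and the same cow was sampled at all 5 days, from alternating glands of the udder. The biopsies were unsorted tissue trimmed of visible fat, so in these data fewer cells of a type and less RNA per cell cannot be told apart.

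Involution is the return of the gland to a non-lactating state once milk removal stops. In mice, LIF, a secreted cytokine of the interleukin-6 family, is released as milk accumulates, binds a receptor built from LIFR and IL6ST, and leads to phosphorylation of STAT3. STAT3 then enters the nucleus, alters transcription and precedes the death of milk-secreting cells, while STAT5, its counterpart in lactation, is switched off. Caspase-9, encoded by CASP9, is the initiator protease of the mitochondrial death pathway and is activated on the apoptosome after cytochrome c leaves the mitochondria. Both STAT3 and caspase-9 act after a change to the protein, which RNA counts do not measure.

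Total counts ran from 20525083 to 26183990 per library (median 22637562.5). The D-3 libraries stood apart from one another. Reads of the milk proteins CSN1S1, CSN2 and LALBA made up 40.2 to 49.8% of all counts in 5 D-3 libraries (cows 8713, 8647, 8541, 7965 and 8564) and 0.19 to 8.03% in the other 7, whereas the highest share at any later day was 14.5%. The scaling factors of these 5 libraries lay between 0.30 and 0.42, against 1.02 to 1.21 in the other 7. Every comparison with D-3 rests in part on these libraries, so the D3 changes called in the 3 genes and their pathway are also given without them.

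LIF RNA was highest 3 days after dry-off in most cows and lower again by D7. At D-3 the LIF level in CPM (counts scaled to the depth of the library, with TMM factors that adjust for its composition) had a low of 0.358, a median of 1.22 and a high of 14.7 over the 12 cows. At D3 they ran from 1.20 through a median of 4.65 to 35.3. The 2 days overlapped, and the high at D-3 was a single cow, 8513, whose next highest neighbour was cow 8660 at 3.30 CPM. The raw LIF counts at D-3 were between 3 and 358, so at the low end counting error alone is large.

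The mean level of LIF rose from 2.52 ± 3.89 CPM (SD, n = 12) at D-3 to 9.96 ± 11.1 CPM (SD, n = 12) at D3. In edgeR's quasi-likelihood test this was a log2 fold change of 1.95 (SE 0.51), a 3.86-fold rise, with a false discovery rate (FDR) of 0.0061 over 14714 loci. LIF was higher at D3 in 10 of 12 cows, all 6 CL cows and 4 of 6 HT cows. It was lower at D3 only in cows 8513 and 8668. The within-cow change averaged 1.83 ± 2.18 (SD, n = 12) on the log2 CPM scale, and an exact two-sided sign-flip test gave p = 0.0156, which became 0.0547 after Benjamini-Hochberg adjustment over 21 tests. Thus edgeR called the rise and the adjusted exact test did not.

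STAT3 RNA also rose at D3, by a smaller factor. Over the 12 cows it ran from 141 through a median of 226 to 418 CPM at D-3. At D3 the low was 226, the median 337 and the high 495 CPM. The ranges overlapped, and the highest value at D-3 again belonged to cow 8513. Mean STAT3 went from 245 ± 70.5 to 333 ± 72.3 CPM (SD, n = 12), a log2 fold change of 0.45 (SE 0.13, edgeR FDR 0.0161). It rose in 10 of 12 cows, and the cows in which it fell, 8513 and 8668, were those in which LIF fell. The exact sign-flip p was 0.0117, or 0.0513 after adjustment over the 21 tests.

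CASP9 RNA differed least between the days. Its level at D-3 had a low of 15.4, a median of 23.5 and a high of 33.4 CPM, and at D3 a low of 24.7, a median of 28.4 and a high of 34.1 CPM. The low end differed most, since 7 of the 12 values at D-3 lay below every value at D3, while the highs were nearly equal. Mean CASP9 went from 23.9 ± 5.06 to 28.4 ± 2.40 CPM (SD, n = 12), a log2 fold change of 0.24 (SE 0.078, edgeR FDR 0.0269). It was higher at D3 in 10 of 12 cows and lower in cows 8314 and 8686 (exact sign-flip p = 0.00928, adjusted p = 0.0513).

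**Figure D1:**
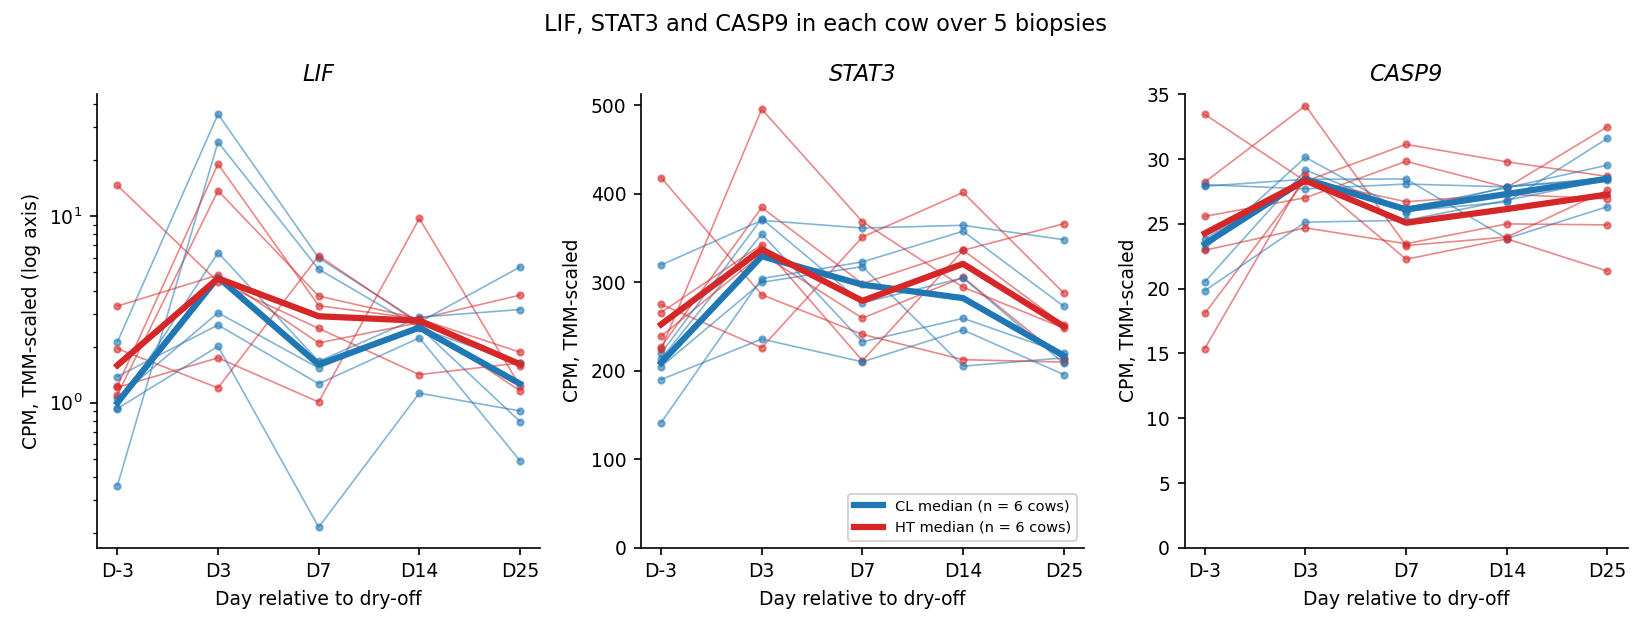
TMM-scaled CPM of LIF (log axis), STAT3 and CASP9 against the day of biopsy, 1 thin line per cow (CL blue, HT red) and 1 thick line for the median of the 6 cows of each treatment. LIF peaks at D3 in 9 of 12 cows, STAT3 peaks at D3 in 6 of 12, and CASP9 spreads from 15.4 to 33.4 CPM at D-3 and less widely from D3 on.

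All 3 genes were therefore called higher at D3 than at D-3, where 6.03% of the loci tested were called higher and 9.04% lower. The study had already reported these genes as upregulated early in involution, from the same libraries. Genes picked with that report known cannot be set against the share of all loci. The calls were lost by leaving out single cows. Those of STAT3 were lost without cow 8541, 8647 or 8713 (edgeR FDR 0.0564, 0.0570 and 0.0714), and those of CASP9 without cow 7965, 8541, 8564, 8603, 8647 or 8713 (FDR up to 0.0805). The LIF call held without any 1 cow, at log2 fold changes from 1.55 to 2.86, the highest being without cow 8513. All 3 calls were lost when only the 24 samples of the 2 days were fitted (edgeR FDR 0.0560 for LIF, 0.0656 for STAT3 and 0.143 for CASP9). With scaling by library size alone the CASP9 call was lost as well, at a log2 fold change of 0.52 (edgeR FDR 0.0660). The median of all loci was then 0.35.

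The highest LIF levels at D3 were in cows with a high milk protein share at D-3. Cow 8564 went from 2.12 to 35.3 CPM of LIF, cow 8647 from 0.358 to 25.0, cow 8713 from 1.22 to 19.1 and cow 8541 from 1.10 to 13.7. These are the 4 highest LIF levels at D3, and all 4 cows are among the 5 with over 40% milk protein reads at D-3. The fifth, cow 7965, went from 1.06 to 3.04 CPM.

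In the other 7 cows, LIF at D3 lay between 1.20 and 6.39 CPM. The top of that range was cow 8603, which rose from 0.941 CPM at a milk protein share of 0.569%. LIF was higher at D3 in 5 of these 7, with a median change of 0.54 on the log2 scale, and cow 8513 fell from 14.7 to 4.45 CPM. Fitted without the 5 cows, the LIF log2 fold change was -0.06 (SE 0.60, edgeR FDR 0.996), that of STAT3 was 0.26 (SE 0.19, FDR 0.940) and that of CASP9 was 0.085 (SE 0.087, FDR 0.964). No locus of 14714 was called at D3 in that fit, and 762 had an unadjusted p under 0.05. That count is close to the share of 0.05 that would fall there on average if no locus differed.

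Leaving out only the 5 D-3 libraries, and keeping all 12 cows at the later days, gave log2 fold changes of 1.51 for LIF (edgeR FDR 0.253), 0.42 for STAT3 (FDR 0.228) and 0.069 for CASP9 (FDR 0.699). In that fit 18 of 14714 loci were called, and 2048 had an unadjusted p under 0.05. The values of LIF and STAT3 thus stayed within 1 SE of those with all libraries, and CASP9 did not. CASP9 at D-3 was 15.4 to 23.9 CPM in the 5 libraries and 23.0 to 33.4 CPM in the other 7. The part of the milk protein reads in the CASP9 change was not tested further.

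**Figure D2:**
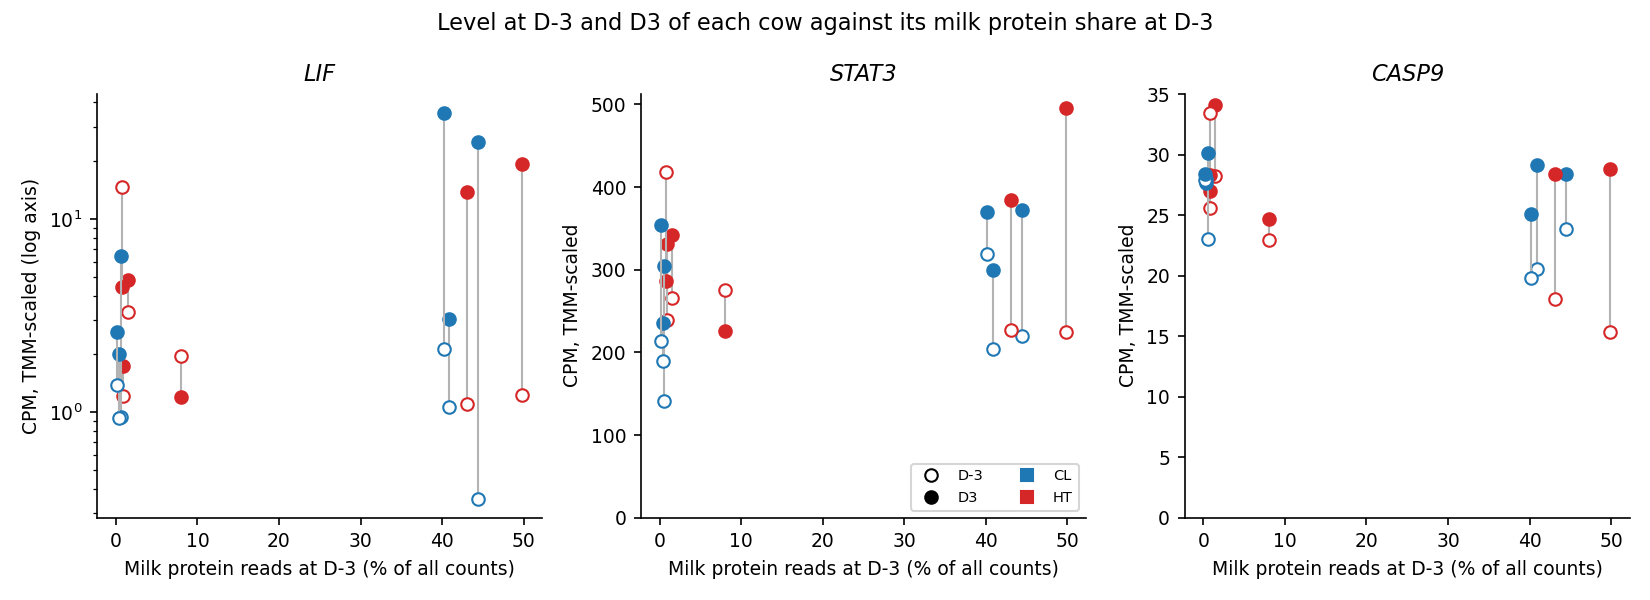
Level of LIF (log axis), STAT3 and CASP9 at D-3 (open) and D3 (filled) for each of the 12 cows (CL blue, HT red), against the share of all D-3 counts that came from CSN1S1, CSN2 and LALBA. The shares form 2 clusters, 0.19 to 8.03% and 40.2 to 49.8%, and the 4 cows with the highest LIF at D3 (13.7 to 35.3 CPM) are in the second.

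Some marker levels moved at D3 as well. MYH2, a myosin of skeletal muscle, had a median of 0.571 CPM at D-3, 3.65 CPM at D3 and 0.147 CPM at D7, and was the only one of 3 listed muscle markers paired with a locus. KRT5, a basal epithelial keratin, changed by 1.01 at D3 and by -1.03 at D7 on the log2 scale (edgeR FDR 0.0190 and 0.0489). KRT19, the other epithelial marker paired, changed by 0.52 and -0.995 and was not called (edgeR FDR 0.333 and 0.0927). The summed level of the 2 of 7 epithelial markers paired had a range of 671 to 1708 CPM at D-3 and one of 717 to 4179 CPM at D3. DCN, the fibroblast marker paired (1 of 5), had ranges of 386 to 1056 and 405 to 1206 CPM on the same 2 days, and ADIPOQ, the adipocyte marker paired (1 of 3), had ranges of 4.08 to 28.1 and 3.02 to 18.8 CPM. Neither DCN nor ADIPOQ was called at D3 or D7 (edgeR FDR 0.0895 or more). None of the 9 leukocyte and 3 endothelial markers was paired, so these cells were not followed here. The part of these cell types in the changes of LIF, STAT3 and CASP9 was not tested.

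From D3 to D7, LIF fell and the other 2 genes were not called. The D3 libraries are those of the comparison with D-3, so the rise and the fall are not independent. LIF at D7 had a low of 0.215, a median of 2.30 and a high of 6.14 CPM, and its mean was 2.89 ± 2.00 CPM (SD, n = 12). The range overlapped that of D3, but LIF was lower at D7 in 11 of 12 cows, cow 8668 being the exception with 1.20 CPM at D3 and 6.14 CPM at D7. The log2 fold change was -1.78 (SE 0.50, edgeR FDR 0.0385), where 2.3% of loci were called lower and 0.625% higher. The call was lost without cow 8060, 8541, 8564, 8603, 8647, 8660 or 8713, with FDR up to 0.133, and with scaling by library size alone (log2 fold change -1.52, FDR 0.274), and with only the 24 samples of the 2 days (FDR 0.0786). The exact sign-flip p was 0.00977, or 0.0513 after adjustment.

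Without the 5 cows rich in milk protein reads the D7 change of LIF was -0.65 (SE 0.61, edgeR FDR 0.830). The direction held in these 7 cows, since LIF was lower at D7 in 6 of them. With only the 5 D-3 libraries left out, the D7 change of LIF was -1.79 and stayed called (edgeR FDR 0.0272). STAT3 at D7 had a low of 210, a median of 288 and a high of 368 CPM. It was lower than at D3 in 9 of 12 cows, with a log2 fold change of -0.21 (SE 0.13, edgeR FDR 0.441). CASP9 ran from 22.3 to 31.1 CPM with a median of 26.1 and changed by -0.10 (SE 0.078, edgeR FDR 0.557).

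Later in the dry period no successive change of the 3 genes was called. LIF had medians of 2.67 CPM at D14 and 1.60 CPM at D25, with ranges of 1.13 to 9.74 and 0.489 to 5.35 CPM. The high at D14 was cow 8314, which stood at 1.01 CPM at D7 and 1.23 CPM at D25. LIF changed by 0.06 (SE 0.49) from D7 to D14 and by -0.61 (SE 0.50) from D14 to D25 on the log2 scale, each with an edgeR FDR of 1. No locus was called from D7 to D14 (0%, with 257 at an unadjusted p under 0.05), and 0.0612% were called from D14 to D25.

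STAT3 ran from 205 through a median of 305 to 401 CPM at D14 and from 196 through 234 to 366 CPM at D25. It was lower at D25 than at D14 in 10 of 12 cows, by a log2 fold change of -0.26 (SE 0.13, edgeR FDR 1). The within-cow change of -0.26 ± 0.23 (SD, n = 12) gave an exact sign-flip p of 0.00537, adjusted 0.0513. This was the smallest exact p of the 21 tests, with 10 of 12 cows in 1 direction as in the D3 comparisons.

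CASP9 held a narrow range, from 23.8 to 29.8 CPM at D14 and from 21.3 to 32.5 CPM at D25. Its medians were 27.1 and 28.4 CPM, close to the 28.4 CPM of D3. The spread between cows was 21.2% of the mean at D-3 and 7.29 to 10.5% at the 4 later days. For LIF the same spread was 155% at D-3, 111% at D3 and 69.1 to 72.8% after that, and for STAT3 it was 28.8% at D-3 and 19.9 to 22.2% after that.

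Against D-3, which shares its libraries with the comparisons above, none of the 3 genes was called at D7, D14 or D25, where 8.46%, 19.5% and 13.1% of loci were called. LIF changed by 0.17 (SE 0.50), 0.23 (SE 0.50) and -0.39 (SE 0.50) on the log2 scale. The LIF values rested on cow 8513, without which they were 1.03, 1.14 and 0.47, none of them called (edgeR FDR 0.152 at D7 and 0.0797 at D14). STAT3 changed by 0.23, 0.30 and 0.05 (SE 0.13 each). CASP9 changed by 0.14, 0.15 and 0.22 (SE 0.078 each). Of these, CASP9 at D25 came nearest to the threshold, with an edgeR FDR of 0.0511, where 3.96% of loci were called higher. With the cow as a replicate block its log2 fold change was 0.23 and the FDR 0.0123, where 8.12% of loci were called higher. It was higher at D25 than at D-3 in 10 of 12 cows (exact sign-flip p = 0.0122, adjusted p = 0.0513). Without the 5 milk-rich D-3 libraries the CASP9 change at D25 was 0.036, and without their cows 0.081 (edgeR FDR 1 each).

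The STAT3 value at D14 depended on cow 8513, without which the log2 fold change against D-3 was 0.44 (edgeR FDR 0.0106). Scaling by library size alone, which raises the median change of all loci from D-3 by 0.36 to 0.48 on the log2 scale, gave STAT3 0.76 at D14 and 0.55 at D25 (FDR 0.00759 and 0.0293) and CASP9 0.62 at D25 (FDR 0.0232). Relative to that shift they were 0.33, 0.07 and 0.14.

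**Figure D3:**
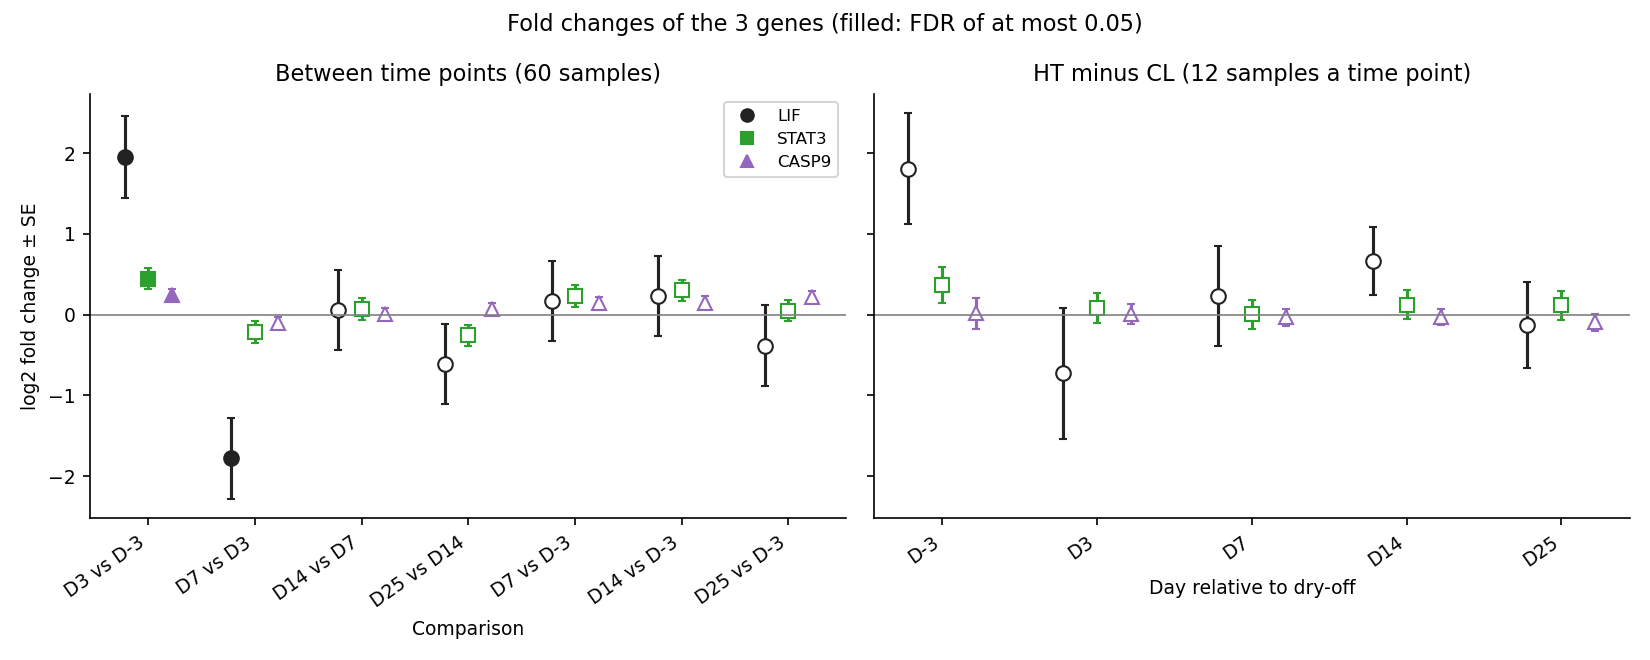
Log2 fold changes with their SE from edgeR for LIF (circles), STAT3 (squares) and CASP9 (triangles), between time points on the left (n = 12 cows a day) and HT minus CL at each time point on the right (n = 6 cows a group), filled where the FDR was at most 0.05. Filled symbols are the 3 genes in D3 vs D-3 and LIF in D7 vs D3, and no symbol on the right is filled.

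The peak of LIF fell at D3 in 9 of 12 cows, 6 of 6 CL cows and 3 of 6 HT cows. The HT cows with another peak were 8513 at D-3, 8668 at D7 and 8314 at D14. STAT3 peaked at D3 in 6 cows, at D14 in 3 cows, and at D-3, D7 and D25 in 1 cow each. CASP9 had no common peak, with 5 cows highest at D25 and 4 highest at D3. Only cow 8513 had both LIF and STAT3 highest at D-3.

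Heat stress was compared with cooling at each day separately, to ask whether the treatment altered these genes during involution. None of the 3 genes was called at any day. At D-3, before treatment, LIF was 3.91 ± 5.33 CPM in the cows later assigned to HT and 1.13 ± 0.585 CPM in those assigned to CL (SD, n = 6 each). The HT values ran from 1.10 through a median of 1.59 to 14.7 CPM and the CL values from 0.358 through 1.001 to 2.12 CPM. The groups overlapped, and the log2 fold change of 1.81 (SE 0.69, unadjusted p = 0.0212 in edgeR, FDR 1) fell to 0.65 without cow 8513. The exact permutation p over all choices of 6 of 12 cows was 0.0844, or 0.860 after adjustment over 15 tests.

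At D3 the order of the LIF means was the other way round, with 7.51 ± 7.24 CPM in HT and 12.4 ± 14.2 CPM in CL. HT cows ran from 1.20 to 19.1 CPM and CL cows from 2.01 to 35.3 CPM, with medians of 4.65 and 4.71 CPM. The log2 fold change was -0.73 (SE 0.81, edgeR FDR 1), less than the spread between cows, and ranged from -1.27 without cow 8713 to -0.099 without cow 8564. At D7 it was 0.23 (SE 0.62) and at D25 -0.13 (SE 0.53), with medians in HT and CL of 2.91 and 1.60 CPM at D7 and of 1.61 and 1.26 CPM at D25. At D14 it was 0.66 (SE 0.42) with medians of 2.75 and 2.53 CPM, and it dropped to 0.094 without cow 8314.

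The log2 difference of STAT3, HT minus CL, was 0.37 (SE 0.22) at D-3, 0.08 (SE 0.19) at D3, 0.003 (SE 0.18) at D7, 0.12 (SE 0.18) at D14 and 0.11 (SE 0.18) at D25. At D3 the STAT3 range was 226 to 495 CPM in HT and 236 to 372 CPM in CL, so the groups overlapped. The differences of CASP9 were 0.02 (SE 0.19), 0.01 (SE 0.12), -0.03 (SE 0.11), -0.03 (SE 0.099) and -0.09 (SE 0.11) over the 5 days. At D3 CASP9 was 28.6 ± 3.11 CPM in HT and 28.2 ± 1.70 CPM in CL (SD, n = 6 each), and the groups overlapped at all 5 days. The lowest edgeR FDR of the 15 comparisons was 0.986 and the exact permutation p-values ran from 0.0844 to 0.985.

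The same fits called 0% of the 14714 loci at every day. An unadjusted p under 0.05 was found at 298, 97, 672, 247 and 333 loci on D-3, D3, D7, D14 and D25. If no locus differed, a share of 0.05 of the 14714 loci would fall there on average, and each of these edgeR counts was below that share. The DESeq2 counts were 380, 114, 813, 267 and 392 on the same days, and the one at D7 was above that share. DESeq2 called 3 loci at D7, 1 at D25 and 0 at the other days, none of them LIF, STAT3 or CASP9. With 6 cows a group, absence of a call does not show that HT and CL cows were alike.

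The change over time was also compared between treatments. From D-3 to D3, LIF changed by 1.01 ± 2.25 in HT cows and 2.64 ± 1.95 in CL cows on the log2 CPM scale (SD, n = 6 each). The difference of -1.63 had an exact permutation p of 0.206, adjusted 0.996 over 21 tests. STAT3 changed by 0.32 ± 0.63 in HT and 0.61 ± 0.33 in CL (exact permutation p = 0.340, adjusted p = 0.996), and CASP9 by 0.29 ± 0.42 and 0.25 ± 0.21 (exact permutation p = 0.814, adjusted p = 0.996). The edgeR test of the interaction of treatment and time gave unadjusted p-values of 0.134 for LIF, 0.751 for STAT3 and 0.963 for CASP9, each with an FDR of 1. It called 0% of loci, 85 having an unadjusted p under 0.05, and DESeq2 called 0 with 112 under 0.05. Both counts were below a share of 0.05 of the loci.

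The rest of the pathway was read from lists of 107 other genes, of which only the 34 with a symbol paired to a locus could be followed. Symbols were paired through the study's tables of the D3 and D7 comparisons, whose rows at hand are those of small p, so the 34 are a selected set and their share of calls is not that of the lists. At D3, 17 of the 34 were called higher, 7 lower and 10 were not called, with a median log2 fold change of 0.34 beside -0.01 for all loci, where 15.1% of loci were called. With scaling by library size alone the counts were 23 higher and 0 lower, and 2391 of all loci were called. The median change of all loci was then 0.35. Without the 5 milk-rich D-3 libraries, or without their cows, 0 were called in either direction, where 18 and 0 of all loci were called.

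At D7, 0 of the 34 were called higher, 6 lower and 28 were not called, with a median of -0.28 beside 0.00 for all loci, where 2.92% were called. The 6 were CTF1, IL27RA, IGFBP5, FOSL1, BOK and FAS. Of these, FAS was not called at D3, and the other 5 were called higher there, in a comparison that uses the same D3 libraries. The count of 6 went to 0 with scaling by library size alone, where 36 of all loci were called, and to 0 without the 5 milk-rich cows, where no locus was. Without only their D-3 libraries the count was 7, where 751 of all loci were called. Leaving out 1 cow gave 0 (without cow 8564) to 9 (without cow 8668).

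Among the IL-6 family ligands, the relatives of LIF, CTF1, cardiotrophin 1, changed by 0.61 (SE 0.16, edgeR FDR 0.00569) at D3 and by -0.65 at D7 (FDR 0.0151), lower in 12 of 12 cows. Its D3 change was 0.43 without the 5 D-3 libraries, not called. LIFR and IL6ST, the subunits of the LIF receptor, were not among the paired genes.

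Of the IL-6 family receptors, 4 of 7 were paired, 3 being higher and 1 lower at D3. Over all loci, 6.03% were called higher and 9.04% lower. OSMR, the oncostatin M receptor, went from 221 ± 140 to 429 ± 212 CPM (SD, n = 12), a log2 fold change of 0.95 (SE 0.29, edgeR FDR 0.0207). IL27RA, a subunit of the interleukin-27 receptor, changed by 0.79 (FDR 0.000551) and by -0.58 at D7 (FDR 0.0376). CNTFR, the receptor subunit for ciliary neurotrophic factor, went the other way, from 35.4 ± 30.6 to 12.96 ± 5.32 CPM (log2 fold change -1.44, SE 0.31, edgeR FDR 0.000930). Without the 5 D-3 libraries the changes were 0.86 for OSMR, 0.56 for IL27RA and -0.14 for CNTFR, none called.

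STAT5B, the prolactin-signalling relative of STAT3, fell as STAT3 rose. It went from 173 ± 56.9 to 116 ± 23.5 CPM (SD, n = 12), a log2 fold change of -0.57 (SE 0.18, edgeR FDR 0.0192), lower in 10 of 12 cows. With scaling by library size alone it was -0.0021, where the median change of all loci was 0.35. Without the 5 D-3 libraries it was -0.19 (edgeR FDR 0.682). The ratio of STAT3 to STAT5B counts in the same library does not depend on scaling, and its change was examined after these values were seen. The log2 ratio rose by 0.99 ± 0.85 (SD, n = 12) at D3, in 10 of 12 cows, with an exact sign-flip p of 0.00342, adjusted 0.0239 over 7 comparisons. It fell by 0.54 ± 0.58 from D14 to D25, in 11 of 12 cows (exact sign-flip p = 0.00977, adjusted p = 0.0330). Without the 5 milk-rich cows the rise at D3 was 0.46 ± 0.68 (SD, n = 7), in 5 of 7 cows (exact sign-flip p = 0.109). The change from D14 to D25 was then -0.53 ± 0.70 (SD, n = 7; exact sign-flip p = 0.0938). From D-3 to D14 the log2 ratio changed by 0.95 ± 1.06 in the 12 cows (exact sign-flip, adjusted p = 0.0330). Without the 5 cows that change was 0.43 ± 1.12 (exact sign-flip p = 0.328).

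Of the other STATs, STAT6, which carries interleukin-4 signals, changed by 0.43 (SE 0.12, edgeR FDR 0.00922) and STAT2, which carries interferon signals, by 0.29 (SE 0.081, edgeR FDR 0.0119) at D3. Of the STAT inhibitors, 3 of 11 were paired. CISH, a suppressor induced by STAT5, went from 74.2 ± 47.9 to 41.9 ± 18.4 CPM (SD, n = 12; log2 fold change -0.82, edgeR FDR 0.0136). The CISH change was -0.14 with scaling by library size alone (edgeR FDR 0.575), where the median of all loci was 0.35. It was -0.063 without the 5 D-3 libraries (FDR 0.925). PTPN11, a phosphatase, changed by 0.29 (FDR 0.0253). Without those libraries STAT6 was at 0.37, STAT2 at 0.23 and PTPN11 at 0.25, none called. SOCS3, the STAT3-induced inhibitor, was not analysed here.

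Of 18 genes listed as targets of STAT3, 7 were paired, and 6 were higher and 0 lower at D3. Over all loci, 6.03% were called higher and 9.04% lower. The 7 belong to the set selected for small p, so their share cannot be set against that of all loci. FOSL1, a subunit of the AP-1 transcription factor, changed by 1.92 (SE 0.49, edgeR FDR 0.00511) and by -1.68 at D7 (FDR 0.0390), at means of 0.572, 2.21 and 0.683 CPM on D-3, D3 and D7. LBP, the lipopolysaccharide-binding acute phase protein, went from 112 ± 148 to 375 ± 351 CPM (SD, n = 12), a change of 1.74 (SE 0.51, edgeR FDR 0.0143). IGFBP5, which binds IGF-1 and limits its survival signal, had a median of 98.6 CPM at D-3, 221 CPM at D3 and 99.9 CPM at D7. Its change was 1.32 (SE 0.33, edgeR FDR 0.00363) at D3 and -1.36 (SE 0.33, FDR 0.0141) at D7, up in 11 and then down in 11 of 12 cows. Without the 5 D-3 libraries these D3 changes were 1.82, 1.29 and 1.18, none called (edgeR FDR 0.176, 0.332 and 0.199).

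The genes around CASP9 did not move in 1 direction. CASP6, an effector caspase, and DFFA, which holds the apoptotic nuclease inactive, were the 2 of 10 paired in their list. Neither was called at D3 (log2 fold changes 0.16 and 0.10, edgeR FDR 0.242 and 0.576), and they are named because the count is small. Of the apoptosome list, 3 of 10 were paired, and AIFM1, a mitochondrial flavoprotein released in cell death, was called lower (-0.47, SE 0.13, edgeR FDR 0.0106). With scaling by library size AIFM1 was 0.04, where the median of all loci was 0.35. Without the 5 D-3 libraries it was -0.15 (edgeR FDR 0.640). BAX and AKT1S1, which the study discusses beside CASP9, were not analysed here.

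In the BCL2 family, 6 of 16 were paired, 3 being higher and 2 lower at D3. Over all loci, 6.03% were called higher and 9.04% lower. BOK, a death-promoting member, changed by 0.65 (SE 0.17, edgeR FDR 0.00758) and by -0.60 at D7 (FDR 0.0424). BMF, which also promotes death, changed by 0.63 (SE 0.13, FDR 0.000671), and MCL1, which protects cells, by 0.63 (SE 0.17, FDR 0.00925). Members with opposite roles thus rose together. Of the death receptor list, 3 of 10 were paired. TNFRSF1A, the TNF receptor, changed by 0.52 (SE 0.12, edgeR FDR 0.00241), and FAS by 0.60 (SE 0.22, FDR 0.0570) at D3 and by -0.91 (SE 0.22, FDR 0.0164) at D7. Without the 5 D-3 libraries the D3 changes were 0.56 for BOK, 0.44 for BMF, 0.59 for MCL1, 0.45 for TNFRSF1A and 0.79 for FAS, none called.

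**Figure D4:**
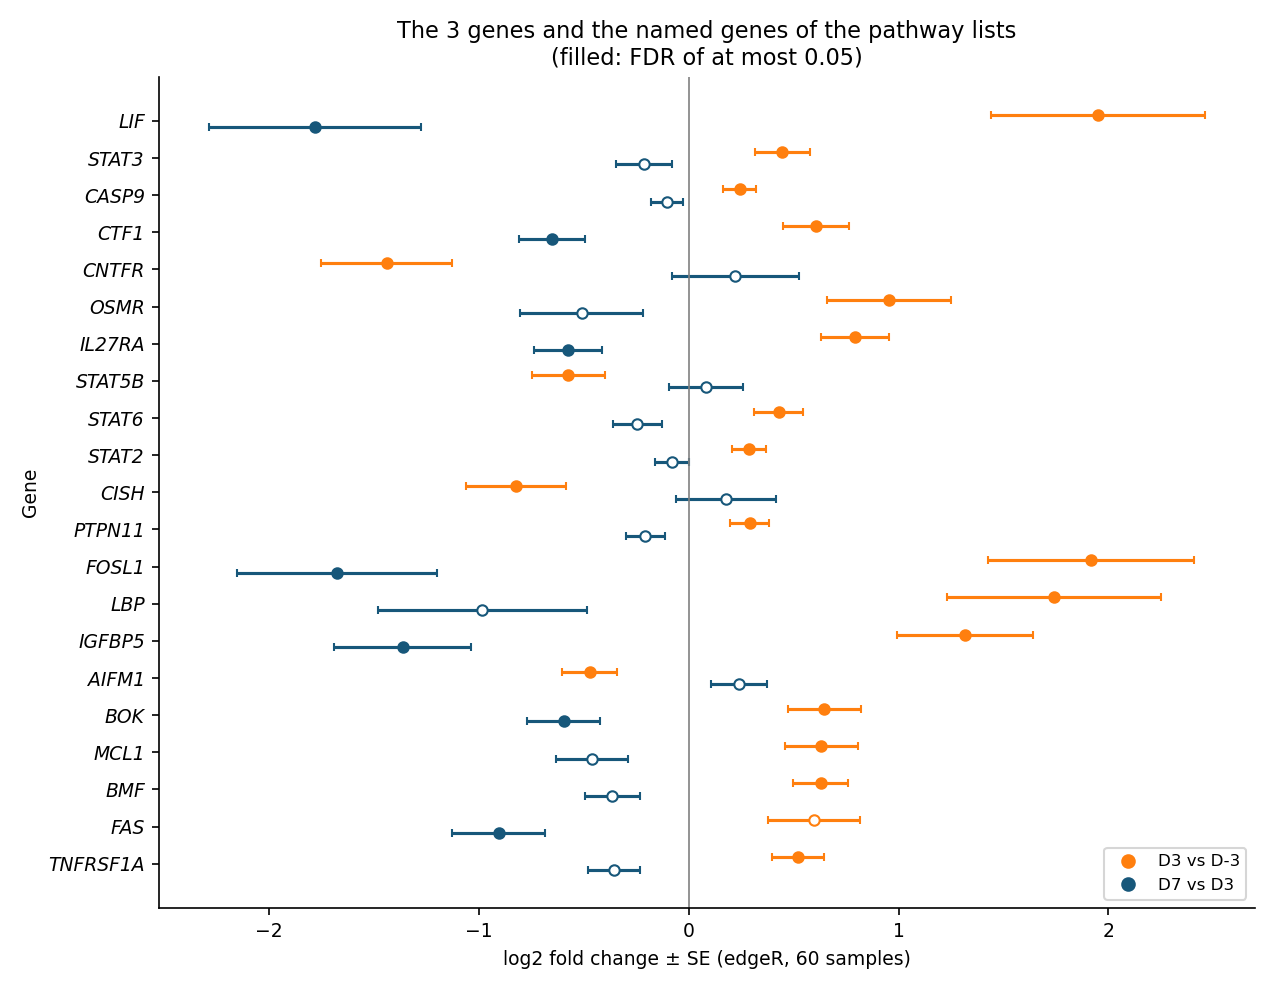
Log2 fold changes with their SE (edgeR, 60 samples) at D3 vs D-3 (orange) and D7 vs D3 (blue) for LIF, STAT3, CASP9 and 18 genes named from the pathway lists, filled where the FDR was at most 0.05. LIF (1.95 and -1.78), FOSL1 (1.92 and -1.68) and IGFBP5 (1.32 and -1.36) rise and fall by nearly the same amount. Both comparisons use the same D3 libraries, so a high level there pushes their values in opposite directions. CASP9 lies closest to 0 of the 3 genes.

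Across the 60 samples, LIF and STAT3 had a Pearson correlation of 0.71 in log2 CPM, and 0.64 after the mean of each day was removed. CASP9 had correlations of 0.12 with LIF and 0.08 with STAT3, and of -0.03 and -0.08 after removal. These are descriptions over 60 libraries from 12 cows, 5 libraries a cow, which share scaling. LIF and STAT3 therefore varied together between cows of the same day, and CASP9 varied with neither.

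The 5 genes most like LIF, of 3007 tested loci with a symbol, were JUNB (r = 0.89), an AP-1 subunit, B4GALT5, a galactosyltransferase, PTGES, the prostaglandin E synthase, TNFRSF12A, the TWEAK receptor, and RNF183, a ubiquitin ligase (r = 0.87 each). JUNB followed LIF at single libraries, with 472 CPM as its highest level at D3 and 154 CPM as its highest at D-3. The genes most like STAT3 were OSMR (r = 0.92), CD9, a tetraspanin (0.86), LBP (0.85), SDC4, a syndecan (0.83), and STEAP3, a ferrireductase (0.83). The value of OSMR was 0.90 after the mean of each day was removed. The 3007 loci were paired through the study's tables of the D3 and D7 comparisons, at rows of small p. Genes without such a row, among the 14714 loci tested, could not be named here.

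The genes most like CASP9 had lower correlations. They were a locus that joins ARHGAP30, NECTIN4, TSTD1 and USF1 (r = 0.78), STK24 (0.73), MYO9B (0.71), a locus that joins AGER and PBX2 (0.70) and DTNBP1 (0.70). Reads of a joined locus cannot be split between its genes. No gene appeared among the 5 most like genes of both LIF and STAT3.

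**Figure D5:**
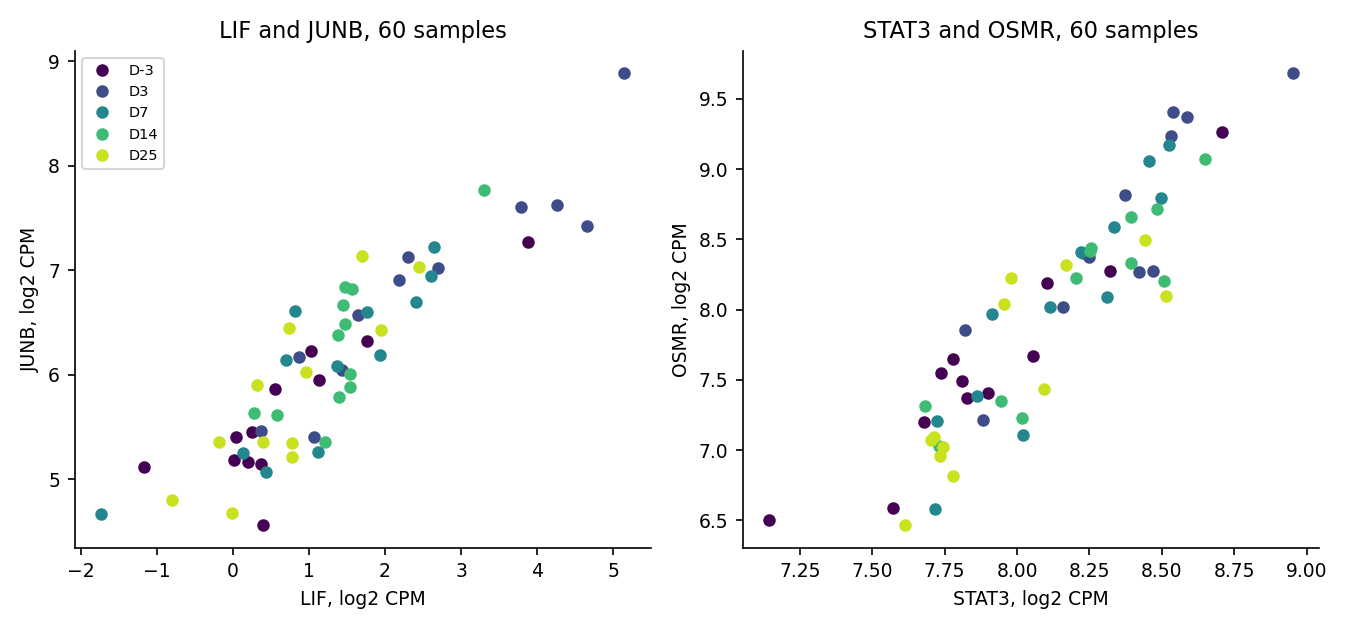
Log2 CPM of LIF against JUNB (left) and of STAT3 against OSMR (right) in the 60 libraries, coloured by day relative to dry-off. The Pearson correlations are 0.89 and 0.92, and D3 libraries hold the highest values of all 4 genes.

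The kit used does not mark strand, so antisense reads cannot be told apart from those of the gene. In RefSeq's ARS-UCD2.0 annotation the CASP9 gene overlaps CELA2A, a pancreatic elastase, and counts of CASP9 are uncertain to that extent. LIF and STAT3 overlap no protein-coding gene there, and lie next to OSM and STAT5A.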

How the data were processed

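Mammary biopsies of 12 cows gave 60 libraries, 6 for each treatment and day, with groups and cows taken from the sample labels. The authors trimmed reads with Trim Galore 0.4.1, aligned them with TopHat2 2.0.13, assembled loci with Cufflinks 2.2.1 and counted uniquely mapped reads with HTSeq, and the deposited values are raw counts per locus. The labels name the build UMD3.1. A locus was tested if 6 or more samples reached 1 CPM (14714 loci), with edgeR 4.0.16 (R 4.3.3; TMM factors, quasi-likelihood F-test), with 1 mean per time point over all 60 samples, and for HT against CL within each day's 12 samples. Calls were made at an FDR of at most 0.05. Adjusted p-values are Benjamini-Hochberg. Log2 CPM used a prior count of 2. Exact sign-flip tests enumerated every sign change of the 12 within-cow differences (smallest p 4.88e-04), and exact permutation tests every choice of 6 of 12 cows. Scripts were tested on simulated data. DESeq2 1.42.0 was an alternative. Symbols were paired with loci through the study's supplementary tables (3033 loci). The genes, the lists and the tests were chosen with earlier results of these data known. From each list the 3 genes of largest fold change among those called were named, except 2 that are not reported here. Same-cow libraries pair by label. Their deviations from group means correlated at 0.29 on average over 120 pairs, against -0.06 for different cows of a treatment. The model reported has no block for the cow, as the study's methods name none, and the blocked fit is an alternative.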

Additional observations from a re-analysis of the deposited data

Results flagged for a closer look

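In 6 of 30 groups of 6 cows, 1 value of LIF, STAT3 or CASP9 stood far from the rest by Dixon's test on CPM. The test's chance rate of about 1 of 20 groups is for normal values and independent groups. These groups share cows and libraries and LIF has a long upper tail, so the 6 cannot be set against that rate. LIF in cow 8513 at D-3 was 14.7 CPM, above the other 5 HT cows, and STAT3 in the same library was 418 CPM. LIF in cow 8314 at D14 was 9.74 CPM and in cow 8541 at D25 3.78 CPM, both above the other HT cows. LIF in cow 8686 at D14 was 1.13 CPM, below the other CL cows, and CASP9 in cow 8647 at D14 was 23.9 CPM, also below the other CL cows.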

How the results depend on the processing

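The D3 calls are bounded by the 5 D-3 libraries rich in milk protein reads and by their cows, and the D7 calls by those cows. The calls of both days are also bounded by the scaling and by 12 cows. LIF has few reads in several libraries, so its values carry more counting error than those of STAT3 and CASP9. The cause of each change below was not tested, beyond the smaller number of samples where samples were left out. Values were recomputed over all genes, comparisons and list counts. For 363 under another setting and 452 without 1 cow, direction and side of the threshold were kept, or the count within 1.5 times. In the same order, 10 and 30 changed sign, 12 and 16 lost a call, and 6 and 5 gained one. A further 14 and 13 list counts moved by more than that. Many of the values that kept their side were not called in either fit. RLE factors, TMM without milk protein genes, the filters, tagwise dispersions, DESeq2 and treatment as a covariate changed no call of LIF, STAT3 or CASP9 over time. The settings without milk-rich cows or libraries, and the exchange of 2 cows, were chosen after the data were seen.

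With scaling by library size alone, the log2 fold changes were -1.52 for LIF at D7 vs D3, 0.76 and 0.55 for STAT3 at D14 and D25 vs D-3, and 0.52 and 0.62 for CASP9 at D3 and D25 vs D-3, where LIF at D7 and CASP9 at D3 lost their calls. Those of HT minus CL changed sign for STAT3 at D7 (-0.13) and CASP9 at D3 (-0.010). The pathway genes called lower went to 0 at D3 and 0 at D7, where the median changes of all loci were 0.35 and 0.064. DESeq2 and tagwise dispersions each called 2 pathway genes higher at D7.

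With only the 24 samples of the 2 time points compared, the changes were 1.96 for LIF, 0.45 for STAT3 and 0.25 for CASP9 at D3 and -1.76 for LIF at D7, none called, with 11 pathway genes higher and 2 lower at D3 and 1 higher at D7. Without the 5 milk-rich cows they were -0.064, 0.26 and 0.085 at D3 and -0.65 for LIF at D7, with -0.71 and -0.098 for LIF at D7 and D14 vs D-3, -0.011 for CASP9 at D7 vs D-3, and 0 pathway genes higher, 0 lower at D3 and 0 lower at D7. Without the 5 D-3 libraries they were 1.51, 0.42 and 0.069 at D3, with -0.27 and -0.21 for LIF and -0.042 and -0.029 for CASP9 at D7 and D14 vs D-3, and 0 pathway genes higher and 0 lower at D3 and 2 higher at D7.

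With the replicate block, CASP9 at D25 vs D-3 was 0.23 and called, and 3 pathway genes were higher at D7. The block changed no other call of the 3 genes. Libraries of cows 8513 and 8660 at D14 and D25 correlated better with each other's earlier days than with their own, and a block with these 2 cows exchanged called STAT3 at D14 vs D-3 (0.31) and CASP9 at D25 vs D-3 (0.23). Both are HT cows, so no group changes. With the exchange, the adjusted exact sign-flip p went from 0.0513 to 0.0492 for LIF at D7 vs D3 and for STAT3 and CASP9 at D3 vs D-3. The same held for STAT3 at D25 vs D14 and CASP9 at D25 vs D-3. For LIF at D3 vs D-3 it stayed at 0.0547.

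Leaving out each cow in turn gave log2 fold changes of LIF from -2.05 to -1.55 at D7 vs D3, from -0.35 to 0.23 at D14 vs D7, and from -0.052 to 1.03, -0.17 to 1.14 and -0.67 to 0.47 at D7, D14 and D25 vs D-3. Those of STAT3 ran from 0.38 to 0.56 at D3, and from 0.24 to 0.44 and -0.014 to 0.17 at D14 and D25 vs D-3. Those of CASP9 ran from 0.20 to 0.30 at D3, from -0.0043 to 0.032 at D14 vs D7 and from 0.18 to 0.27 at D25 vs D-3, the last being called without cow 8060, 8314, 8660 or 8686. Pathway genes called lower ranged from 3 to 7 at D3 and 0 to 9 at D7, and called higher from 0 to 2 at D7. HT minus CL changed sign within -0.073 to 0.65 at D7 and -0.46 to 0.42 at D25 for LIF, within -0.047 to 0.17 at D3, -0.082 to 0.081 at D7 and -0.0069 to 0.24 at D25 for STAT3, and within -0.10 to 0.12 at D-3, -0.033 to 0.041 at D3 and -0.086 to 0.0087 at D7 for CASP9. None of these treatment differences was called in any setting.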
